A study of Mus musculus with 70 samples.

Results

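The neuropeptides examined here were 10 precursor genes of the limbic system, namely neuropeptide Y (Npy), tachykinin 1 (Tac1), preproenkephalin (Penk), prodynorphin (Pdyn), somatostatin (Sst), cholecystokinin (Cck), vasoactive intestinal polypeptide (Vip), galanin (Gal), cocaine and amphetamine regulated transcript (Cartpt) and neurotensin (Nts). Every spot of the cDNA array whose printed name was the full name or the symbol of one of them was taken. This gave 12 probes of 9 genes out of 22824 probes on the array. Penk, Sst and Cartpt had 2 probes each, numbered here by their order on the array, and no spot was matched to Nts.

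HAB and LAB mice are lines bred from CD-1 (ICR) stock for high (HAB) or low (LAB) anxiety-related behaviour on the elevated plus-maze. The groups were 7 HAB pools and 7 LAB pools, 1 of each line for each of 7 brain regions, from males aged 10 weeks of generation 16 under basal conditions, which by the methods had been through a tail suspension test 3 days before. Each pool held tissue of 6 mice, and by the methods the same mice gave all regions, so regions are not independent samples of the lines. The regions were the cingulate cortex (Cg), the nucleus accumbens (NAc), 3 parts of the amygdala, namely the central (CeA), medial (MeA) and basolateral with lateral (BLA), and in the hypothalamus the supraoptic (SON) and paraventricular (PVN) nuclei. Each region was hybridized on 10 two-colour arrays, 5 with HAB RNA in Cy3 and 5 with HAB RNA in Cy5, and these were technical replicates of the same pair of pools. All p-values below therefore compare pools, and the spread between mice of a line is not in them. Those of the test over the 7 regions rest on the spread between regions of the same mice. As p-values of the lines they are too small. The tissue came from micropunches, so the NAc punch was the core with some shell and every punch can hold neighbouring tissue. In such tissue, fewer cells of a type and less RNA per cell cannot be told apart.

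Neuropeptides are cut from larger precursors inside dense-core vesicles and act on G protein-coupled receptors, mostly more slowly than the fast transmitter released by the same neuron. In the limbic forebrain many of their precursors mark kinds of GABAergic neurons. Tac1 and Pdyn are transcribed in striatal projection neurons of the direct pathway, Penk in those of the indirect pathway, and Sst, Npy, Vip and Cck in interneurons of cortex and amygdala. Cart peptides and galanin are made in many hypothalamic and amygdaloid neurons.

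Several of these genes are textbook targets of cAMP signalling through the cAMP response element (CRE), so the upstream sequences were searched for its letters, TGACGTCA, and for its 5-letter core, CGTCA, which the full element contains on each strand. The array's own cDNA probe sequences were not used here, and the windows below come from RefSeq promoters of GRCm38.p6. Of 32851 promoters, searched on both strands over the 250 bases before the start, 1.55% held the full element and 17.8% held the core. Of the 9 measured genes, Npy, Tac1, Sst, Cck, Vip, Gal and Cartpt had 1 promoter each and Pdyn had 2, which makes 9 promoters, and Penk was not matched. The full element was found in 2 of the 9 (Sst and Cartpt), and the core in 5 of the 9. The windows run 5′ to 3′ on the gene's strand with the matched letters in capitals, and lie at chr16:23890855-23890922 on the minus strand (Sst), chr13:99900758-99900825 on the minus strand (Cartpt), chr6:7554834-7554898 on the plus strand (Tac1), chr10:5639109-5639173 on the plus strand (Vip) and chr9:121495707-121495771 on the minus strand (Cck).
Sst: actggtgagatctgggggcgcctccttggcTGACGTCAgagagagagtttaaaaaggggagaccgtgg
Cartpt: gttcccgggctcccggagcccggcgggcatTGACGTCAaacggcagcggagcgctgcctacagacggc
Tac1: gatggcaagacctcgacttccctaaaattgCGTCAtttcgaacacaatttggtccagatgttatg
Vip: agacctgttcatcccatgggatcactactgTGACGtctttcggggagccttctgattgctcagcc
Cck: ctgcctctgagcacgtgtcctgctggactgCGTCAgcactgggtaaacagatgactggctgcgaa
The Sst element began 48 bases before the start and the Cartpt element 112 bases before it. The Tac1 window shows the core at 197 bases, and the same promoter held it again at 43 bases before the start. The core began 79 bases before the start of Vip and 47 bases before that of Cck. The AP-1 letters TGACTCA were in 4.46% of all promoters and in 0 of the 9, and TATAAA was in 12.4% of all and, of the 9, in Vip alone. These matches describe letters only.

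Array quality limits what can be read. Median raw intensity ran from 135 to 2480 over arrays and channels, the number of arrays sets the precision, and no member spot was saturated. The median correlation of an array's log2 intensities with the other 9 arrays of its region was 0.39 for 1 CeA array (HAB in Cy3, replicate 4) and 0.60 to 0.91 for the rest. On that CeA array 2.05% of probes in the HAB channel and 0.0438% in the LAB channel were brighter than the empty spots, and the CeA ratios of Npy, Tac1, Penk probe 2, Pdyn and Cartpt and of the other genes named below are given with and without it. The BLA arrays were weak too, with median correlations of 0.60 to 0.76, and all were kept. On 1 of them (HAB in Cy5, replicate 3) the shares were 0.946% (HAB) and 5.15% (LAB), which limits BLA levels and ratios. By the scan times in the files, the PVN arrays were scanned well before those of the other 6 regions, so scan period and PVN cannot be told apart in levels. Against the regions' labels, thyrotropin releasing hormone was above the empty spots in 20 of 20 PVN channels and in at most 3 elsewhere. Vasopressin was above them in 18 PVN and 12 SON channels and in at most 3 of any other region. Neurod2, a cortical transcription factor, had its highest level in the Cg, though above the empty spots in only 9 of 20 channels there. Pde10a, a striatal marker, was above them in 0 of 20 channels in every region.

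Not every neuropeptide could be measured. A spot was counted as above the empty spots when its raw intensity exceeded their median by more than 2 median absolute deviations on the log2 scale in the same channel. In all, 6 of the 12 probes (5 genes) reached this on at least 35 of 70 arrays in either line, against 30.5% of all probes. These were Tac1 (65 HAB and 67 LAB arrays), Cartpt probe 1 (55 and 55), Npy (55 and 52), Sst probe 1 (54 and 49), Pdyn (42 and 40) and Cartpt probe 2 (35 and 39). Below that limit were Penk probe 2 (19 and 24), Vip (13 and 14), Penk probe 1 (13 and 13), Sst probe 2 (12 and 14), Cck (6 and 5) and Gal (4 and 0). In 13 of the 84 combinations of probe and region no channel of either line was above the empty spots, so they have no fold here, and in 8 more only 1 line was.

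**Figure D1:**
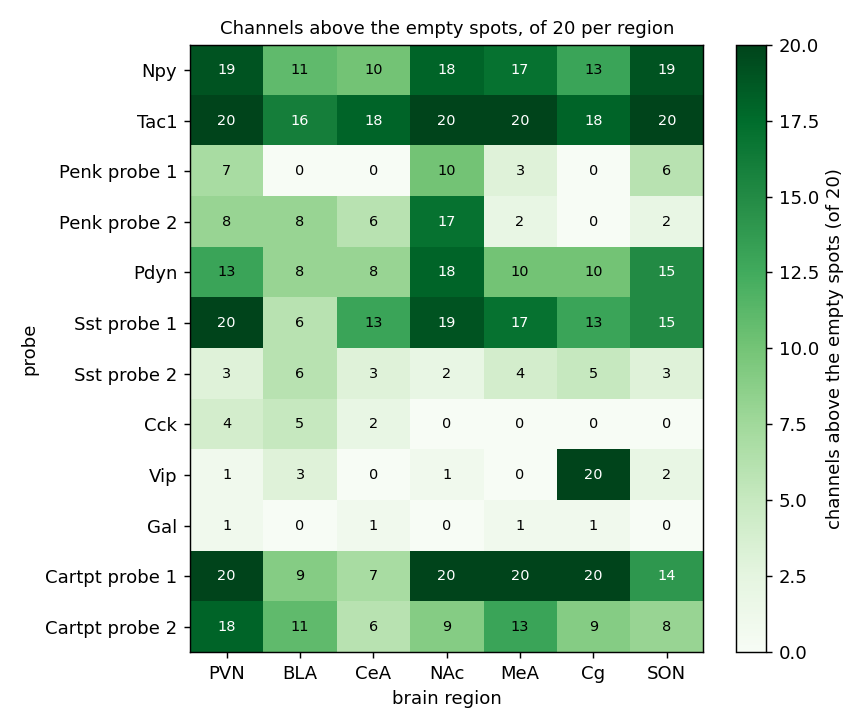
Number of channels above the empty spots for each of the 12 probes (vertical axis) in each brain region (horizontal axis), out of 20 (10 HAB and 10 LAB); darker green is more channels. Tac1 is above the empty spots in 16 to 20 channels of every region, Vip in 20 channels of the Cg and at most 3 elsewhere, and Gal in at most 1 channel of any region.

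The first question was whether the lines differed in these genes over the limbic regions as a whole. No member passed the test: 0 of the 12 probes passed limma over the 7 regional log2 HAB/LAB values at an adjusted p of 0.05, where 0.302% of all probes did, and 2 of the 12 had an unadjusted p under 0.05, as did 6.33% of all probes. Tac1 did pass (limma adjusted p = 0.00106), with 168 of all probes, in a fit over 35 means of same-numbered arrays with region as a random block. That fit counts technical replicates of the same pools as samples, and the numbers did not pair the arrays. In the test over the 7 regional values Tac1, the precursor of substance P and neurokinin A, came nearest. Its mean log2 HAB/LAB was -0.35 (SE 0.0926, limma adjusted p = 0.189), lower in HAB in 6 of 7 regions. Penk probe 2 followed with -0.27 (SE 0.0798, limma adjusted p = 0.283), below 0 in all 7 regions although it was mostly not above the empty spots, and in the Cg on no channel. The other 10 means lay between -0.17 (Cartpt probe 2) and 0.14 (Sst probe 2). The median size of the 12 means was 0.108, beside 0.0627 over all probes, and the median of single regional values was 0.169 beside 0.159.

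The next question was which pair of pools differed within a region. A combination was counted when the mean was at least 1.3-fold (0.38 on the log2 scale) and all 10 arrays pointed the same way, a count without a p. In 71 combinations at least 1 channel was above the empty spots. Of these 9 reached 1.3-fold lower in HAB, beside 5.73% of all such combinations on the array, and 3 reached 1.3-fold higher, beside 5.48%. In 3 of the 12, all 10 arrays were on 1 side. All 3 were lower in HAB: Tac1 in the SON, Tac1 in the MeA and Penk probe 1 in the MeA. The same count took 0.556% of all probes in the SON, 0.587% in the MeA, 0.740% in the PVN, 0.223% in the BLA, 1.02% in the CeA, 1.99% in the NAc and 1.58% in the Cg. By limma over the 10 arrays with a dye term, 0 of 84 combinations passed after adjustment over all probes, beside 0.361% on the whole array, and 14 had an unadjusted p under 0.05, beside 9.61%.

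**Figure D2:**
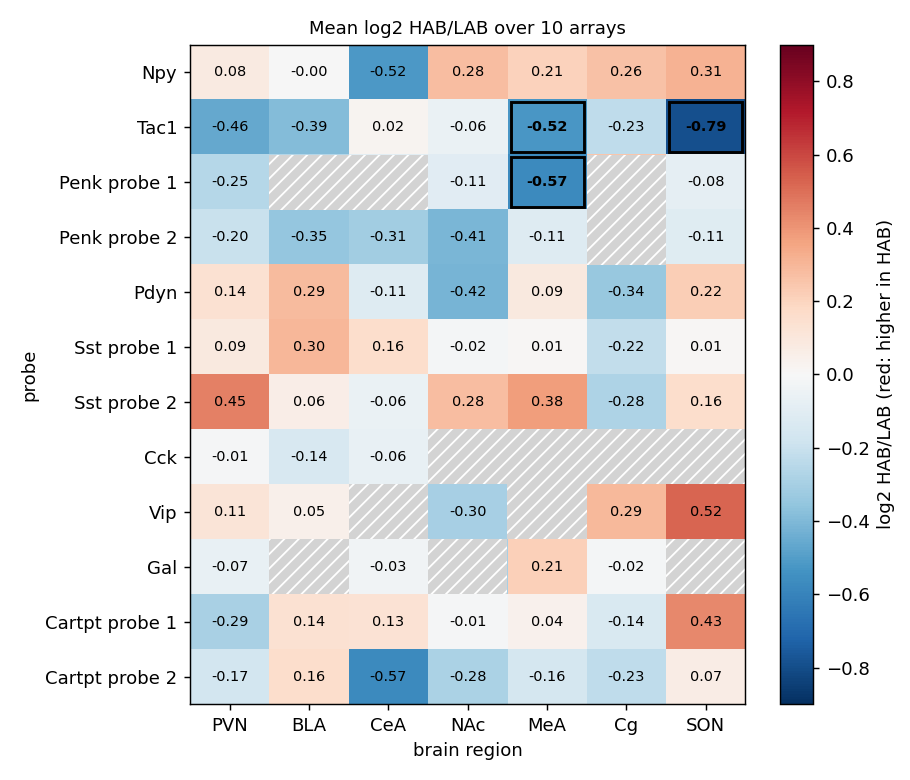
Mean log2 HAB/LAB over 10 arrays for each probe (vertical axis) and brain region (horizontal axis), red where HAB was higher and blue where LAB was higher; black frames mark the 3 combinations with at least 1.3-fold and all 10 arrays in 1 direction, and hatched cells those where neither line was above the empty spots. Tac1 is negative in 6 of 7 regions and reaches -0.79 in the SON.

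Tac1 in the SON was the clearest difference. With HAB in Cy3 the 5 arrays read -0.94, -0.94, -1.23, -0.53 and -0.59, and with HAB in Cy5 they read -0.88, -0.69, -0.58, -0.71 and -0.84. Every array was lower in HAB, and both dye orientations gave means close to each other (-0.85 and -0.74). The regional mean was -0.79 ± 0.216 (SD, 10 arrays), a 1.73-fold lower signal in HAB, with a limma adjusted p of 0.108. The spot was above the empty spots in all 20 channels, at a median raw intensity 18.6 times (HAB) and 31.4 times (LAB) theirs. Signal levels on the normalized log2 scale were 11.97 ± 0.387 in HAB and 12.76 ± 0.368 in LAB.

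In the MeA, the amygdaloid nucleus that receives olfactory input, Tac1 was lower in HAB on all 10 arrays as well. The arrays read -0.40, -0.57, -0.55, -0.33 and -0.41 with HAB in Cy3 and -0.13, -0.70, -0.78, -0.32 and -1.02 with HAB in Cy5. Their mean was -0.52 ± 0.260 (limma adjusted p = 0.354), or 1.43-fold. In the PVN 9 of 10 arrays were lower in HAB, from -1.07 to 0.03 with a median of -0.47, and the mean was -0.46 ± 0.295 (limma adjusted p = 0.102). The Cy5 arrays of the PVN (-0.65) were further from 0 than the Cy3 arrays (-0.27). In the BLA the mean of -0.39 ± 0.531 came from the Cy5 arrays (-0.79), while the Cy3 arrays averaged 0.01. The Cg mean was -0.23 ± 0.393, with 3 arrays higher in HAB, and the 6 Cg arrays of a scan day holding both dyes gave -0.41. The CeA (0.02 ± 0.294, or 0.04 without the array that stood apart) and the NAc (-0.06 ± 0.290) had arrays on both sides of 0.

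The Tac1 difference between lines was compared among the regions next. By limma's F-test of region over the 70 arrays it was unequal (adjusted p = 0.00102), as it was for 6.09% of all probes, and Tac1 was the 1 member to pass. With 1 dye orientation alone this F-test missed the threshold (limma adjusted p = 0.0572 on the Cy3 arrays and 0.0855 on the Cy5 arrays). The SON stood 0.52 below the mean of the other 6 regions (-0.79 against -0.27, limma adjusted p = 0.0183), where 0.508% of all probes had a departing SON. The CeA stood 0.43 above the other 6 (limma adjusted p = 0.0205), where 4.11% of all probes had a departing CeA. The CeA departure was 0.45 without the array that stood apart (limma adjusted p = 0.0218). Over all 7 such contrasts 1.33% of all tests passed, and 3 of 84 did for the members. Both Tac1 departures changed call with the processing. The SON departure missed the threshold when any 1 of the 5 replicate numbers was left out (limma adjusted p = 0.0672 to 0.133). It also missed it with HAB in Cy5 alone (-0.34, limma adjusted p = 0.389), with median centring (-0.47, 0.0956) and with replicate number as a term (0.0695). The CeA departure missed the threshold without replicate 1 (limma adjusted p = 0.159), 2 (0.121) or 5 (0.0953) and with HAB in Cy3 (0.210) or Cy5 (0.377) alone. It missed it as well with replicate number as a term (limma adjusted p = 0.0582) and with median centring, where it was 0.14 (0.628).

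**Figure D3:**
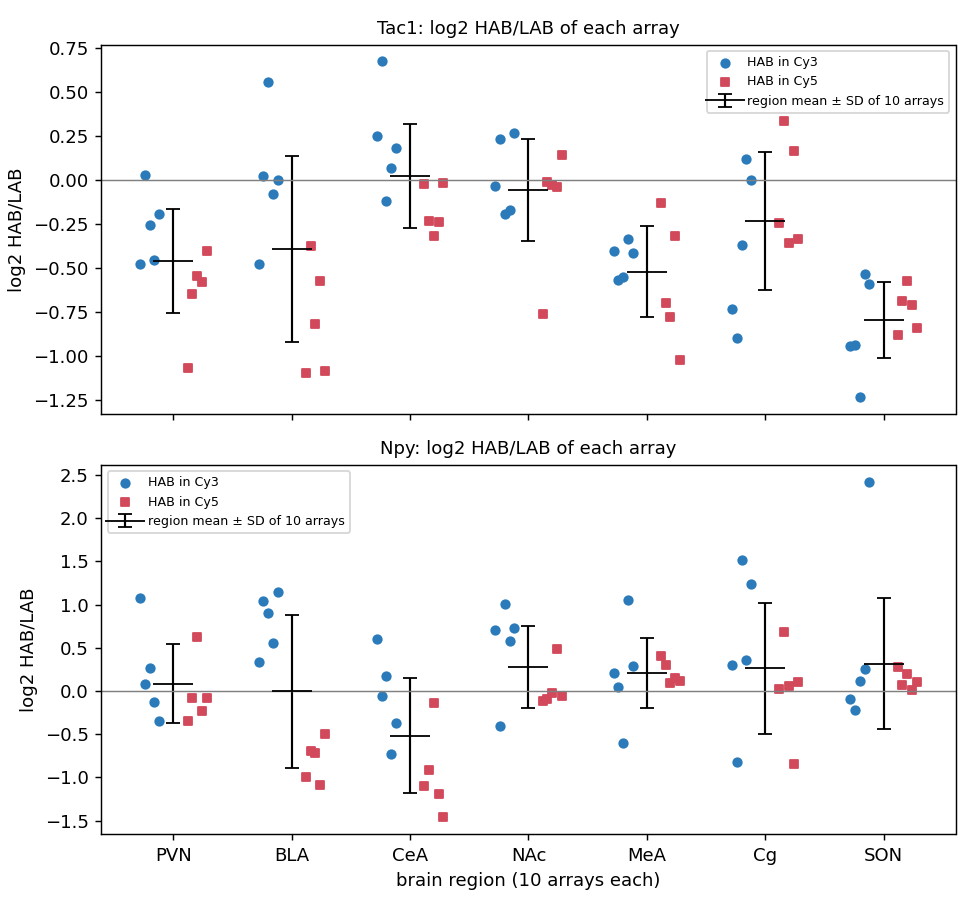
Log2 HAB/LAB of Tac1 (upper panel) and Npy (lower panel) on each of the 10 arrays of a brain region (horizontal axis), blue circles with HAB in Cy3 and red squares with HAB in Cy5; the black bar and whiskers are the regional mean and SD. All 10 SON arrays and all 10 MeA arrays of Tac1 lie below 0, and the Npy arrays of the BLA split by dye, with means of 0.79 and -0.80.

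Cell type markers were read in the same punches, beside the Tac1 result. In the SON the list medians were 0.05 for 7 astrocyte genes, -0.12 for 6 microglia genes, -0.17 for 4 endothelium genes and 0.33 for 4 choroid plexus and ependyma genes. They were -0.09 for 6 striatal neuron genes and 0.02 for 8 inhibitory neuron genes. The rest were -0.19 for 4 excitatory genes, 0.10 for 3 hypothalamic genes and 0.00 for 7 oligodendrocyte genes. In that last list the myelin gene Mbp read 0.73 and was the only marker of any list counted in the SON, while Mobp read -0.41 and Cnp -0.23. In the MeA the medians were -0.03 (inhibitory), -0.05 (striatal), -0.02 (excitatory), -0.21 (hypothalamic) and 0.06 (oligodendrocyte). They were -0.05 for the astrocyte, 0.04 for the microglia, 0.10 for the endothelium and 0.01 for the choroid plexus list. The only marker counted there was Aldoc, an astrocyte enzyme, at -0.59. In the CeA, 4 of 7 oligodendrocyte genes departed from the other regions, as did the neuronal genes Gad1, Rarb and Nrgn, the astrocyte genes Slc1a3 and Gja1 and the choroid plexus gene Ttr. Without the CeA array that stood apart, Ttr missed the threshold (limma adjusted p = 0.0695) and the others named here passed. Their part in the Tac1 and Npy values was not tested.

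The signal level of Tac1, both lines averaged, was highest in the NAc at 13.0 ± 0.288 (SD of the 10 arrays) and lowest in the Cg at 10.3 ± 0.519, a 6.59-fold range, and both ends stayed in all 15 settings tried. The order was NAc, SON, MeA, BLA, CeA, PVN and Cg, where the place of the PVN cannot be told apart from its scan period. Neighbours in such an order were taken to differ beyond their spread when the gap exceeded the larger of the 2 SDs. The NAc exceeded the SON (by 0.65) and the PVN exceeded the Cg (by 1.13) in this way, and the MeA exceeded the BLA only just (0.534 against an SD of 0.530). SON and MeA, BLA and CeA, and CeA and PVN did not differ beyond it. In the SON and MeA, with levels of 12.4 and 12.3, the lines differed most, and in the NAc, with the highest level, the lines' levels were 13.0 each.

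Levels of all 12 probes differed between regions by limma's F-test over the 14 pools, but so did 93.1% of all probes, and region and array set cannot be told apart. Both lines of a region share arrays, so the p-values of levels, here and below, are too small. The members' median range over regions was 1.82 on the log2 scale, beside 1.11 over all probes. Levels below are on this normalized log2 scale and compare regions of the same probe, never probes with each other.

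**Figure D4:**
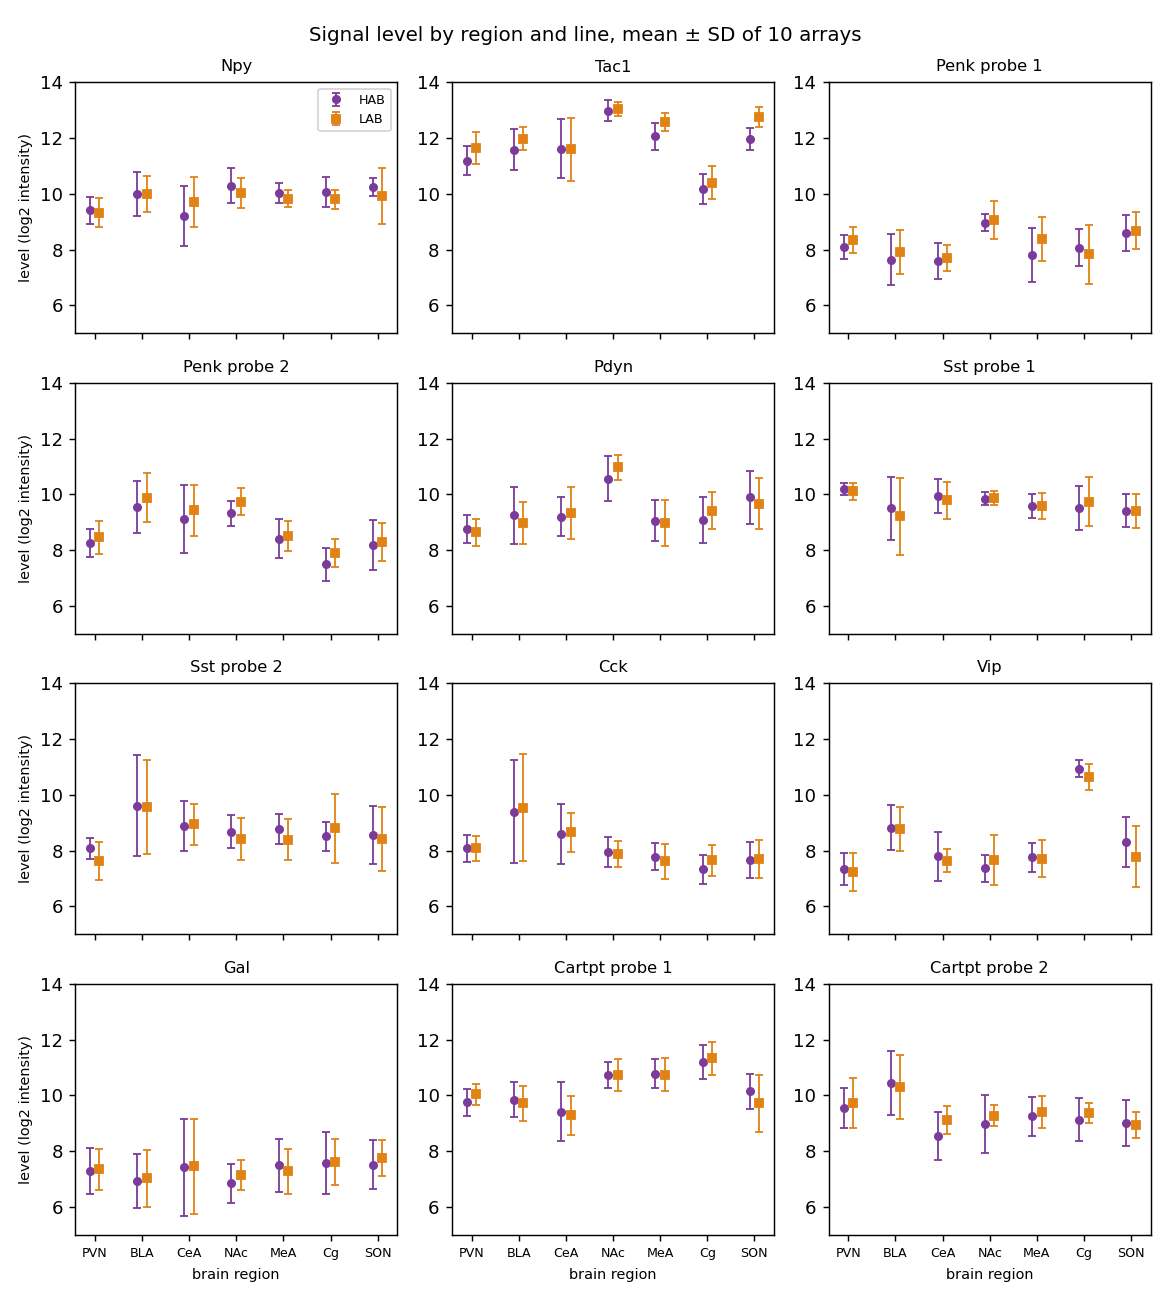
Signal level (normalized log2 intensity, vertical axis) of each probe in each brain region (horizontal axis) for HAB (purple circles) and LAB (orange squares), as mean and SD of 10 arrays. Tac1 and Pdyn peak in the NAc and Vip in the Cg, and in the SON the LAB level of Tac1 (12.76) lies above the HAB level (11.97).

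Npy, an anxiolytic peptide of interneurons in cortex and amygdala, had its lowest regional value in the CeA, with 5 of the other 6 above 0. In the CeA the arrays read 0.60, -0.06, 0.17, -0.73 and -0.37 with HAB in Cy3 and -1.10, -0.91, -0.14, -1.19 and -1.46 with HAB in Cy5. The 5 Cy5 arrays were all lower in HAB, whereas the Cy3 arrays lay on both sides of 0. Their mean was -0.52 ± 0.665 (limma adjusted p = 0.233), or -0.44 without the array that stood apart, and the HAB channel was brighter than the empty spots on 4 arrays and the LAB channel on 6. The other regional means were 0.31 in the SON, 0.28 in the NAc, 0.26 in the Cg, 0.21 in the MeA, 0.08 in the PVN and 0.00 in the BLA. The CeA stood 0.71 below the mean of the other 6 regions (limma adjusted p = 0.0164), which fell short of the threshold without the CeA array that stood apart (-0.63, limma adjusted p = 0.0522). It also fell short without replicate 4 (-0.62, limma adjusted p = 0.126) or 5 (-0.55, 0.141) and with HAB in Cy3 alone (-0.53, 0.550). The 8 CeA arrays of the scan day with both dyes gave -0.64. Over all regions the F-test did not pass (limma adjusted p = 0.167). It passed with HAB in Cy5 alone (limma adjusted p = 0.00543), but not with HAB in Cy3 alone (0.691). Among probes above the empty spots it passed as well (limma adjusted p = 0.0399).

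In the BLA the Npy arrays split by dye. The 5 Cy3 arrays read 0.33 to 1.14 and the 5 Cy5 arrays -1.09 to -0.50, without overlap, so the mean of -0.00 ± 0.885 is an average of opposite readings. In the SON the mean of 0.31 ± 0.756 included 1 array at 2.42, and the other 9 lay between -0.22 and 0.28. The level of Npy was highest in the NAc (10.2 ± 0.529) and lowest in the PVN (9.37 ± 0.450), 1.73-fold apart. The PVN was lowest in 10 of 15 settings, and no neighbours in the order of the 7 regions differed beyond their spread.

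The opioid precursors were Penk, which gives the enkephalins, and Pdyn, which gives the dynorphins that act on the kappa receptor. Pdyn in the NAc read lower in HAB on 9 of 10 arrays, from -1.29 to 0.15 with a median of -0.34. The mean was -0.42 ± 0.457 (limma adjusted p = 0.220), made mostly by the Cy5 arrays (-0.71 against -0.12). In the Cg it was -0.34 ± 0.415 with 8 of 10 arrays lower. The 5 other regional means ran from -0.11 in the CeA (-0.24 without the array that stood apart) to 0.29 in the BLA, so that the mean over all regions was -0.02. The level of Pdyn was highest in the NAc (10.8 ± 0.611) and lowest in the PVN (8.70 ± 0.453), 4.20-fold. The PVN, whose arrays were of another scan period, was lowest in 13 of 15 settings. Its median raw intensity was 5.92 times (HAB) and 4.96 times (LAB) that of the empty spots. Those ratios exceeded the ones of every other region but the NAc (13.4 and 11.1). The NAc exceeded the SON (9.78 ± 0.878) by more than their spread, and no lower neighbours differed beyond theirs.

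Penk had 2 probes, both named preproenkephalin 1 on the array, and neither was above the empty spots in most channels. Probe 2 was read best in the NAc, in 17 of 20 channels, where 9 of 10 arrays were lower in HAB and 1 read 0.00. Its NAc arrays ran from -0.93 to 0.00 with a median of -0.37 and a mean of -0.41 ± 0.341 (limma adjusted p = 0.136). That mean was made mostly by the Cy3 arrays (-0.71 against -0.11). Probe 1 did not repeat this lower reading in the NAc, where 10 of its 20 channels were above the empty spots. It gave -0.11 ± 0.705 there, lower in HAB on 5 arrays and higher on 5. In the BLA probe 2 gave -0.35 ± 0.399, lower on 8 of 10 arrays. Probe 1 in the MeA was lower in HAB on all 10 arrays, from -1.82 to -0.01 with a median of -0.36. Its mean there was -0.57 ± 0.656 (limma adjusted p = 0.476), but only 2 HAB channels and 1 LAB channel were brighter than the empty spots. Probe 2 in the MeA gave -0.11 ± 0.758, lower on 7 of 10 arrays.

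Between regions the Penk probes placed the highest level differently, probe 1 in the NAc (9.02 ± 0.393) and probe 2 in the BLA (9.71 ± 0.888), followed by the NAc (9.53 ± 0.429). Those 2 regions of probe 2 did not differ beyond their spread, and its BLA level rests on 8 of 20 channels above the empty spots. In the CeA probe 2 read -0.31 ± 1.02, or -0.43 without the array that stood apart.

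Among the interneuron peptides, Vip had the sharpest regional pattern of detection. It marks cortical interneurons that inhibit other interneurons. In the Cg it was above the empty spots in 20 of 20 channels at a level of 10.8 ± 0.348. No other region had more than 3 such channels, and the nearest level, in the BLA, was 8.79 ± 0.756. The Cg level lay 2.94 above the mean of the other regions (limma adjusted p = 3.04e-14), and the Cg was the highest region in all 14 settings tried. Between the lines Vip in the Cg read 0.29 ± 0.361, higher in HAB on 8 of 10 arrays (limma adjusted p = 0.521). The higher mean in the SON, 0.52 ± 0.677, came from the Cy5 arrays (1.01 against 0.03) and from a spot above the empty spots in 2 of 20 channels.

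Sst, which marks dendrite-targeting interneurons and is also made in periventricular neurons, had probe 1 means between -0.22 in the Cg and 0.30 in the BLA, with arrays on both sides of 0 in every region. The highest level of probe 1 was in the PVN, 10.2 ± 0.216, with 20 of 20 channels above the empty spots, and its lowest in the BLA, 9.35 ± 1.23. No neighbours in its order differed beyond their spread, and the PVN arrays were of another scan period. Probe 2 was dim, with 2 to 6 channels per region, and gave 0.45 ± 0.719 in the PVN, higher in HAB on 8 of 10 arrays. The Sst probes had the same sign in 5 of 7 regions. Their levels ran in opposite directions, with the PVN highest and the BLA lowest by probe 1, and the BLA highest and the PVN lowest by probe 2.

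Cck, carried by basket-type interneurons and many cortical projection neurons, was above the empty spots in 5 BLA, 4 PVN and 2 CeA channels and in 0 of 20 of the other 4 regions. Its BLA value was -0.14 ± 0.646 and its PVN value -0.01 ± 0.572, so a line difference was not detectable at this signal. Gal, a modulator of monoamine neurons, was above the empty spots on 4 of 70 arrays in HAB (1 each in the PVN, CeA, MeA and Cg) and on 0 in LAB, and neither its levels nor its ratios can be read.

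Cartpt encodes Cart peptides, which act on feeding, reward and stress responses. Probe 1 was above the empty spots in all channels of the PVN, NAc, MeA and Cg. The line means there were -0.29 ± 0.354, -0.01 ± 0.441, 0.04 ± 0.216 and -0.14 ± 0.271, and in the PVN 8 of 10 arrays were lower in HAB (limma adjusted p = 0.450). In the SON the arrays split by dye, from 0.73 to 1.98 with HAB in Cy3 and from -0.69 to -0.09 with HAB in Cy5, so the mean of 0.43 ± 0.894 joins opposite readings. Probe 2 gave its lowest value in the CeA, -0.57 ± 0.721 with 8 of 10 arrays lower (limma adjusted p = 0.303), where probe 1 gave 0.13 ± 0.487. Without the CeA array that stood apart these were -0.59 and 0.18. The probes had the same sign in 5 of 7 regions.

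By level, Cartpt probe 1 was highest in the Cg at 11.3 ± 0.585 and lowest in the CeA at 9.35 ± 0.864, 3.75-fold, in all 15 settings tried. The Cg, MeA (10.8) and NAc (10.7) did not differ from their neighbours beyond the spread, and the NAc exceeded the SON (9.92) by more than it. Probe 2 was highest in the BLA (10.4 ± 1.13) and lowest in the CeA as well. Which probe follows the Cartpt transcript more closely was not tested.

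Receptors and processing enzymes were read from lists of named genes by their brightest probe. Of 6 receptors of these peptides on the array, out of 27 named, 1 was higher in HAB over the regions and none was lower. Over all probes 0.302% passed this test in either direction. It was Vipr1, the receptor shared by Vip and PACAP, with a mean of 0.45 (SE 0.0882, limma adjusted p = 0.0133), higher in 7 of 7 regions. Its regional values were 0.77 in the NAc, 0.63 in the Cg, 0.57 in the CeA, 0.52 in the MeA, 0.32 in the PVN, 0.22 in the BLA and 0.11 in the SON. The HAB channel was brighter than the empty spots on 66 arrays and the LAB channel on 64. In the CeA and the NAc all 10 arrays were higher in HAB, and without the CeA array that stood apart Vipr1 had a CeA value of 0.63 and passed over the regions again (limma adjusted p = 0.0152).

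Of 10 other neuropeptide precursors on the array (of 30 named) and 18 processing genes (of 25 named), none passed over the regions. By the F-test of region 1 precursor and 2 processing genes passed, where 6.09% of all probes did. Vasopressin (Avp) read 1.17 in the SON and 0.83 in the PVN, opposite in sign to Tac1 in both nuclei (limma adjusted p = 0.0207). That test also took in the CeA, MeA and Cg, where no channel of Avp was above the empty spots, and the BLA and NAc, where 3 and 2 of 20 were. Carboxypeptidase E (Cpe), which trims the cut peptides, ran from -0.60 in the CeA to 0.22 in the NAc (limma adjusted p = 0.00014). Secretogranin II (Scg2), a dense-core vesicle protein, ran from -0.65 in the NAc to 0.45 in the CeA (limma adjusted p = 0.00286). Without the CeA array that stood apart the CeA values were -0.74 for Cpe and 0.53 for Scg2, and both passed again (limma adjusted p = 1.25e-06 and 0.0015). Prepronociceptin (Pnoc) missed the F-test (limma adjusted p = 0.0708), but its CeA value of -0.75 departed from the other regions (limma adjusted p = 0.0336). A departing CeA was found for 4.11% of all probes. Pnoc was above the empty spots on 7 of 70 arrays in each line. Without that CeA array it read -0.86 and passed the F-test (limma adjusted p = 0.0411). The list medians over the regions were -0.06 for the precursors, 0.04 for the receptors and -0.00 for the processing genes, beside -0.00 over all probes.

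For each member with a probe above the empty spots on enough arrays, the named probes with the most similar level over the 14 pools were found by Pearson's r among 2955 named probes above the empty spots (2954 for Cartpt). Pools share arrays, mice and normalization, so these are descriptions without a test. Cerebellin 4 was nearest to Tac1 (r = 0.84), followed by the adaptor-related protein complex 1 sigma 2 subunit (r = 0.82) and cell division cycle 25 homolog A (r = 0.79). Nearest to Npy were open reading frame 31 (r = 0.89), a disintegrin and metalloprotease domain 10 (r = 0.88) and heme oxygenase 1 (r = 0.88). Nearest to Pdyn were membrane-spanning 4-domains subfamily A member 1, the voltage-gated sodium channel type X alpha and sialyltransferase 6, all at r = 0.86. Nearest to Sst probe 1 were S-adenosylhomocysteine hydrolase (r = 0.94), thioredoxin reductase 3 (r = 0.92) and paired-like homeodomain transcription factor 1 (r = 0.92). Nearest to Cartpt probe 1 were the p23 telomerase binding protein (r = 0.94), downstream neighbor of SON (r = 0.94) and WASP family 1 (r = 0.93).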

How the data were processed

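For each region, RNA of 1 HAB and 1 LAB pool was amplified in 2 rounds and hybridized to cDNA arrays of 24192 spots in 48 print-tip blocks, which were scanned on a ScanArray instrument and quantified by the authors in QuantArray. The deposited scanner files give spot and background intensities for both channels on a linear scale. The authors also deposited a table of normalized log2 ratios, used here only as an alternative; its direction was taken from each array's correlation with the scanner ratios (0.68 to 0.93) and its column medians lay between -0.007 and 0.0106. Its making, per the study's methods, was a global and then a loess step on log2 ratios, with later steps for uneven printing within a slide. The background correction behind that table is not given in the sources used here. It held no value for Penk and Sst in any region, for Cck and Gal outside the PVN, for Vip in the CeA, NAc, MeA and SON, for Pdyn in the BLA and for Npy in the SON.

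Intensities were corrected with normexp (offset 50), with 79.8% of the local background values at 0. Ratios were normalized by loess (span 0.4, with 1368 control and empty spots at weight 0), followed by print-tip block medians, and turned to HAB over LAB. The dye of 3 arrays was read from the image name. Arrays were averaged within each dye orientation and then over both. Levels are per-channel log2 intensities after Aquantile scaling. The 1170 empty spots set the detection limit. Tests used limma 3.58.1 in R 4.3.3 with Benjamini-Hochberg adjustment over 22824 probes, and the routines were checked on simulated data. Members, gene lists and tests were chosen with earlier results of these data known. All member probes are named. Of the precursor, receptor and processing lists, the genes that passed over the regions or by the F-test of region are named. Pnoc is named for its CeA contrast. Not every marker gene that passed a test is named. Alternatives covered background, normalization, filter, dye, scan day, region, replicate and scaling.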

Additional observations from a re-analysis of the deposited data

Results flagged for a closer look

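Over the 84 combinations of probe and region, 5 had an array far from the other 9 by Dixon's criterion, which chance meets in about 1 in 20 groups. They were Npy in the SON (HAB in Cy3, replicate 5, log2 HAB/LAB 2.42), Tac1 in the NAc (HAB in Cy5, replicate 1, -0.76), Penk probe 2 in the MeA (HAB in Cy5, replicate 2, 1.70), Cck in the BLA (HAB in Cy3, replicate 5, 1.42) and Cartpt probe 1 in the CeA (HAB in Cy3, replicate 3, 1.31).

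The line difference of Tac1 differed between regions by limma's F-test (adjusted p = 0.00102). Single regions departed from the mean of the other 6 for Npy in the CeA (-0.71), Tac1 in the CeA (0.43) and Tac1 in the SON (-0.52). Tac1 in the CeA was 0.45 and Npy in the CeA -0.63 without the CeA array that stood apart.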

How the results depend on the processing

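The count of member probes that passed over the 7 regions was 0 in every alternative but 1. In the fit over 35 means of same-numbered arrays with region as a random block, Tac1 passed (1 probe, -0.35, limma adjusted p = 0.00106). There 168 of all probes passed, and technical replicates were counted as samples. Replicate numbers did not pair the arrays (correlations of same-numbered deviations -0.05 to 0.04 in 35 pairs). The adjusted p of Tac1 over the regions ranged from 0.00106 to 0.599 over 23 settings. The 3 combinations counted between pools became 1 with median centring and 1 with the authors' ratios. They became 9 with HAB in Cy3 alone and 16 with HAB in Cy5 alone (5 arrays must then point 1 way). By limma with a dye term, with or without a term for replicate number, they became 0. Leaving out replicates gave 3 to 5. The number unequal over regions, 1 (Tac1), was 4 among the 6953 probes above the empty spots, with Npy, Pdyn and Cartpt probe 1 added. Leaving out replicates kept it at 1. With 1 dye orientation alone it was also 1, but the probe was not Tac1. It was Npy with HAB in Cy5 and another member probe with HAB in Cy3. The 3 departing regions became 5 with that filter, 1 with HAB in Cy5 alone, 1 with replicate number as a term and 0 to 2 without each replicate. Tac1 in the SON held in 10 of 18 settings, Tac1 in the CeA in 11 of 18 and Npy in the CeA in 13 of 17. These counts include the main setting, and the limma adjusted p reached 0.389, 0.628 and 0.55. All 12 levels differed in each alternative, or 6 where the filter left 6 members tested, and 12 without each replicate. Detection on the linear scale, an alternative chosen after seeing the data like the omission of the CeA array and the PVN, passed 8 members in place of 6. No difference that had been called changed sign, but values that had not did: 11 of 249 means over the regions (Npy from 0.09 to -0.20 with HAB in Cy5 alone), and Tac1 in the CeA, 0.02, was -0.20 with median centring. Signal over the empty spots limits Penk, Cck, Gal, Sst probe 2 and, outside the Cg, Vip.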
